A study of Homo sapiens with 23 samples.

Results

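Clade B serpins are protease inhibitors that, unlike most serpins, lack a classical signal peptide and act largely inside cells. An inhibitory serpin offers a flexible reactive loop to a protease, which cuts the loop and is then trapped in a covalent complex. Many clade B genes are prominent in squamous epithelium, glands or leukocytes, and in humans they lie in a cluster on chromosome 18 and a smaller group on chromosome 6. The genes described here are the 8 rows of the deposited table, of 21463 in all, named SERPINB1, SERPINB3, SERPINB4, SERPINB5, SERPINB6, SERPINB7, SERPINB8 and SERPINB9. They were chosen by name as intracellular clade B serpins other than SERPINB2.

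The values come from PC-3, an established human cell line from a prostate cancer metastasis. All cells carried a lentiviral TetOne construct in which doxycycline induces the cDNA of PARG, an enzyme that removes poly(ADP-ribose) from proteins, together with a cleavable mClover3 fluorescent tag. Each of the clones I4 and H6, both grown from single transduced cells, was kept for 72 h with 500 ng/ml doxycycline or without it. Experiment N used passage 5 and experiment B passage 7, with sequencing by different centres. In all, 23 libraries of poly(A)-selected RNA, each from 1 well, fell into 8 groups of 3, except that untreated H6 cells of experiment B had 2. No line lacking the construct was analysed here, so doxycycline and PARG induction cannot be told apart. In bulk RNA, fewer cells making a transcript and less of it per cell cannot be told apart either.

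The deposited table gives, for each of the 4 comparisons of doxycycline with none, the higher of the group means, a signed fold change and an adjusted p (q-value). Values of single libraries are not in it, so no SD can be given, and the authors' q-value is the measure of significance; a gene is called changed at q under 0.05. Levels are RPKM values (reads scaled to exon length in kilobases and to library size; the file does not name the unit), and the level of the lower group was computed here as the higher mean divided by the fold, so it is approximate. Directions rest on PARG, the induced gene, which has a positive fold in all 4 comparisons of the authors' deposited table (1.35-fold and 1.40-fold in I4, 2.15-fold and 1.99-fold in H6, in experiments N and B). The smallest steps between faint genes put the depth in experiment N at about 37.4 M reads per library for I4 and 36.1 M for H6. In experiment B the values were 21.6 M and 22.8 M, where the H6 value describes the 3 wells with doxycycline and not the 2 without it. The range in which these steps were sought was set by hand for each experiment, which bounds the result. The depths, and all read numbers derived from them, are therefore approximate. The epithelial keratin KRT8 stood at 25.1 to 55.9 RPKM with doxycycline and 19.7 to 42.9 RPKM without. KRT18 stood at 101.2 to 127.1 RPKM with it and 84.5 to 99.1 RPKM without. Both keratins were called higher in all 4 comparisons of the authors' deposited table. Of the other epithelial markers examined, EPCAM stood at 4.15 to 5.66 RPKM over the 8 groups and CDH1 at only 0.183 to 0.394 RPKM. EPCAM and CDH1 were called higher in H6 in experiment N and in no other comparison. Of 8 markers of stratified squamous epithelium 7 had a mean level under 0.1 RPKM. KRT10 was the exception, at 9.08 to 29.2 RPKM over the 8 groups. The 6 leukocyte markers together reached at most 0.347 RPKM, of which CD14 alone stood at 0.110 to 0.200 RPKM. Apart from KRT10, the squamous and leukocyte markers examined were thus low or at 0.

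In PC-3 cells given doxycycline, SERPINB3 fell and SERPINB5 rose in each clone and each experiment. SERPINB4, the near-copy of SERPINB3, had a negative fold throughout and was called lower in both clones in experiment N. SERPINB8 was called lower in clone I4 in both experiments, SERPINB1 and SERPINB7 were called lower in I4 in experiment B, and SERPINB6 and SERPINB9 were not called in any comparison. In I4 the authors' deposited table calls 4 of the 8 genes in experiment N, 1 higher and 3 lower, where 15.7% of all tested genes are called (7.18% higher, 8.53% lower). In experiment B it calls 5 for this clone, 1 higher and 4 lower, where 14.0% of all tested genes are called (7.46% higher, 6.59% lower). For H6 it calls 3 in experiment N, 1 higher and 2 lower, against 13.6% of all tested genes (6.57% higher, 7.07% lower). In experiment B it calls 2 for H6, 1 in each direction, against 7.56% of all tested genes (3.63% higher, 3.93% lower). Called in all 4 comparisons with the same sign were 2 of the 8, while 3.69% of the genes tested in all 4 were so called (1.73% higher and 1.97% lower). The median log2 fold of the 8 genes in experiment N was -0.17 for I4 and 0.02 for H6, and in experiment B it was -0.39 for I4 and -0.02 for H6. All genes at 1 RPKM or more had medians from -0.008 to 0.008.

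**Figure D1:**
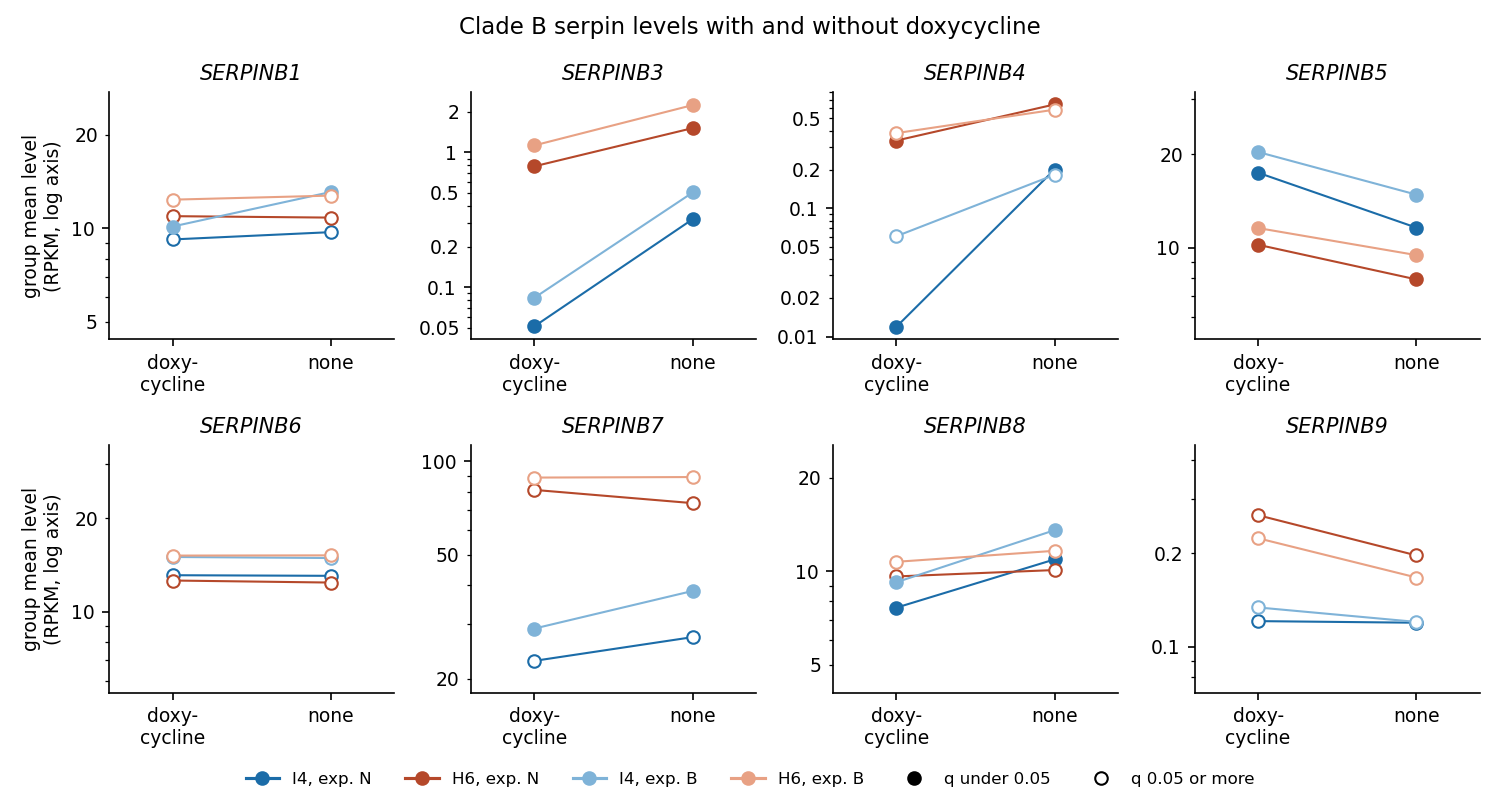
Group mean level of each clade B serpin (RPKM, log axis) with doxycycline and without it, in the 4 comparisons; each line joins the groups of 1 clone and experiment, and filled points mark q under 0.05. SERPINB3 lines slope to lower levels with doxycycline and SERPINB5 lines to higher ones in all 4 comparisons, whereas the SERPINB6 lines are flat; 1 end of each line is the deposited higher mean and the other was computed from the fold.

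SERPINB3 and SERPINB4 lie next to each other on chromosome 18, on the minus strand of GRCh38, SERPINB4 (ENSG00000206073) at 63637259 to 63644298 and SERPINB3 (ENSG00000057149) at 63655197 to 63661963. The 250 bases before their start sites in RefSeq (GRCh38.p14, chr18:63661894-63662143 for SERPINB3 and chr18:63644257-63644506 for SERPINB4) are shown because these neighbours moved in the same direction. Capitals mark the 3 bases that differ.
SERPINB3: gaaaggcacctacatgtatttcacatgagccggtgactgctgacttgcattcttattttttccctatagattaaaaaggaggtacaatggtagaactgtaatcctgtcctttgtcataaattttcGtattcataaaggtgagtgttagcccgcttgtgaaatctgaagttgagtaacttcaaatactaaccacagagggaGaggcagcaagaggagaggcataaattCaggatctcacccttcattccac
SERPINB4: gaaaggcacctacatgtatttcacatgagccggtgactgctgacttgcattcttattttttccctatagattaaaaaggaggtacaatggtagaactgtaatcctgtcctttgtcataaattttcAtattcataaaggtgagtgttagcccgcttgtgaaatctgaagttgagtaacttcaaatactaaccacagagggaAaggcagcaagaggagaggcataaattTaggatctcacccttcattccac
Counted from 1 at the 5′ end, the differences from SERPINB3 to SERPINB4 are G126A, G201A and C228T, which leaves 247 of 250 bases identical (98.8%). The best global alignment of SERPINB3 with the same window of each of the other 6 genes left 51.2% to 58.4% of bases identical. For SERPINB6 and SERPINB7, which have several windows, only the first listed window was aligned.

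In GENCODE v29 the SERPINB5 start lies 185.2 kb from that of SERPINB3, and SERPINB5 moved the opposite way. Its RefSeq window of 250 bases (GRCh38.p14, chr18:63476708-63476957, plus strand) is shown with the match to the AP-1 motif TGANTCA in capitals.
SERPINB5: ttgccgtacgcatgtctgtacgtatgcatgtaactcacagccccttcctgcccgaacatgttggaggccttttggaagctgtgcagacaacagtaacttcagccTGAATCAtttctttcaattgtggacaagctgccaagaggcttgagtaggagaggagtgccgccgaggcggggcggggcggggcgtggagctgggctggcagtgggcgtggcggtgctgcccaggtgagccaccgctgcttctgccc
The match lies 146 to 140 bases before the RefSeq start. The GENCODE starts of SERPINB3, SERPINB4 and SERPINB5 lie inside the windows shown, so part of each window may be transcribed. For SERPINB5 the marked match lies downstream of the GENCODE start, so the match itself may be transcribed. Searched on both strands, TGANTCA occurs in 6.57% of the 35116 promoter windows of RefSeq, and it was found for SERPINB5, SERPINB7 and SERPINB8 among the 8 genes. CATTCC, the core bound by TEAD factors, was found for SERPINB3 and SERPINB4 among the 8 (11.9% of all windows). In both windows CATTCC lies close to the RefSeq start and downstream of the GENCODE start. A kappa-B consensus was found for SERPINB7 (5.21% of all windows), TTCNNNGAA, a STAT motif, for SERPINB1, SERPINB7 and SERPINB8 (6.57%), TATAAA for SERPINB7, SERPINB8 and SERPINB9 (10.7%), and TGACGTCA for none of the 8 (1.65%). SERPINB6 has 4 windows and SERPINB7 has 3, each of which was searched for the motifs.

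SERPINB3 encodes squamous cell carcinoma antigen 1, an inhibitor of the papain-like cathepsins L, S and K. In clone I4 its level with doxycycline and without it was 0.0513 and 0.320 RPKM in experiment N, and 0.0835 and 0.504 RPKM in experiment B, from the authors' deposited table. For H6 the same table gives 0.788 RPKM with doxycycline and 1.51 RPKM without in experiment N, and 1.13 and 2.24 RPKM in experiment B. Levels with doxycycline were thus lower than without it in all 4 comparisons, and H6 cells with doxycycline still held more SERPINB3 transcript than I4 cells without it. The authors' deposited table lists falls of 6.23-fold (q = 0.00024) and 6.03-fold (q = 5.74e-05) in I4, in experiments N and B. In H6 the falls were 1.92-fold (q = 0.00175) and 1.99-fold (q = 0.000384) in the authors' deposited table. At the depth given above, the I4 levels with doxycycline amount to about 3.41 and 3.21 reads per library in experiments N and B, against about 21.2 and 19.4 without it, so the size of the I4 fold is uncertain. In H6 about 50.5 reads per library stood with doxycycline in experiment N, against 96.9 without it, and about 45.5 with doxycycline in experiment B. The level in I4 was below 1 RPKM in both experiments, so the I4 calls of SERPINB3 end where 1 RPKM is required. Ranked by size among the genes called lower, SERPINB3 came 22nd of 1444 and 19th of 1047 in I4 and 98th of 1224 and 67th of 625 for H6 (experiment N, then B). Whether the fold differs between the clones was not tested, since the table has no replicate values.

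SERPINB4 encodes squamous cell carcinoma antigen 2, which inhibits chymotrypsin-like proteases such as cathepsin G and mast cell chymase. In I4 the levels with doxycycline and without it were 0.0119 and 0.200 RPKM in experiment N, and 0.0604 and 0.182 RPKM in experiment B, from the authors' deposited table. In H6 they were 0.336 and 0.643 RPKM in experiment N, and 0.384 and 0.586 RPKM in experiment B, from the authors' deposited table. The fold was negative in all 4 comparisons, and H6 levels lay above I4 levels in both states. In experiment N the authors' deposited table gives SERPINB4 as 16.9-fold lower in I4 (q = 0.00194) and 1.91-fold lower in H6 (q = 0.034). In experiment B it lists folds of -3.01 in I4 (q = 0.144) and -1.52 in H6 (q = 0.615), which were not called. The I4 level with doxycycline in experiment N corresponds to about 0.893 reads per library, against about 15.1 without it, so the 16.9-fold value is not a reliable size. In experiment B about 2.63 reads per library remained in I4 with doxycycline, against 7.92 without it.

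How far reads of SERPINB3 and SERPINB4 can be told apart bears on both. Their coding sequences in GENCODE v29 are each 1173 bases long and share 1117 bases (95.2%). Over windows of 60 bases the median number of identical bases was 58. The window with the fewest, bases 952 to 1011 of the coding sequence in exon 8 of 8 (chr18:63655819-63655878 and chr18:63637881-63637940, minus strand of GRCh38), is shown with the 10 differing bases in capitals, since reads over such stretches separate the genes.
SERPINB3: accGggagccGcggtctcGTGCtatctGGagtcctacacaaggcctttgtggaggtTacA
SERPINB4: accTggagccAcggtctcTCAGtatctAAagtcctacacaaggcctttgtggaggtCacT
Of all stretches of 50 bases in the main SERPINB3 transcript 23.9% occur without a mismatch in a SERPINB4 transcript, and of stretches of 100 bases 3.40%, while of 150 bases none do. Neither the read length nor the treatment of reads with several matches is stated in these sources, so some reads may have been assigned to the wrong copy, and the folds of the pair are not fully independent measurements. SERPINB11, which overlaps SERPINB3 on the other strand, is listed at 0 in every comparison of the authors' deposited table.

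**Figure D2:**
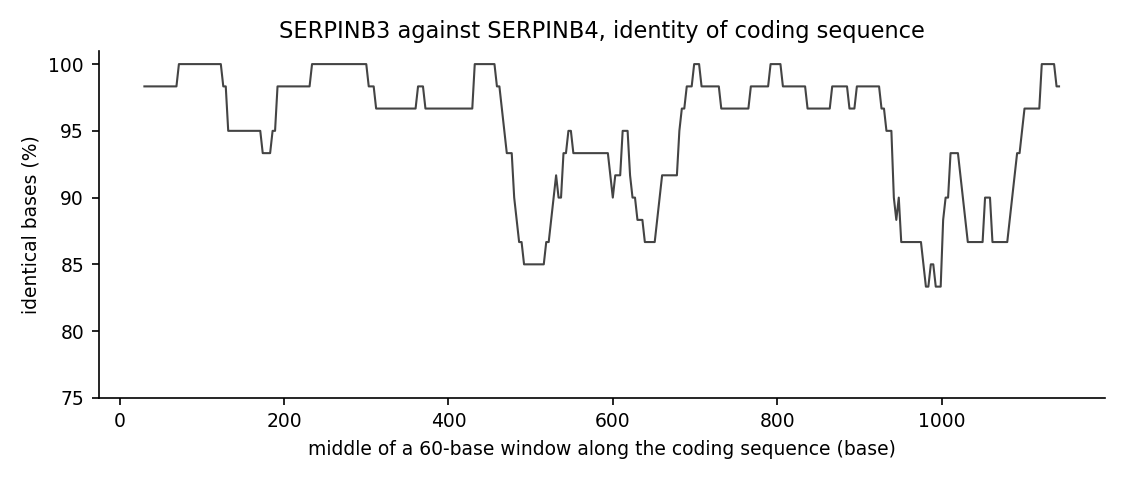
Share of identical bases (%) between the SERPINB3 and SERPINB4 coding sequences in windows of 60 bases, plotted by the middle of the window; the axis starts at 75%. Identity dips near the middle and near the end of the coding sequence, with the lowest window at 83.3%.

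SERPINB5 encodes maspin, a serpin that does not inhibit proteases and is known as a suppressor of invasion and metastasis in breast and prostate cancer models. The gene (ENSG00000206075) lies on chromosome 18 from 63476761 to 63505085 on the plus strand of GRCh38. In I4 its level with doxycycline and without it was 17.4 and 11.6 RPKM in experiment N, and 20.3 and 14.8 RPKM in experiment B, from the authors' deposited table. In H6 the levels were 10.2 and 7.91 RPKM in experiment N, and 11.6 and 9.47 RPKM in experiment B, from the authors' deposited table. Every level with doxycycline exceeded the matching level without it, and I4 exceeded H6 in both states and both experiments. The authors' deposited table gives rises of 1.50-fold (q = 2.48e-14) and 1.37-fold (q = 2.66e-08) in I4, in experiments N and B. In H6 it lists 1.29-fold (q = 2.37e-05) and 1.22-fold (q = 0.0208), of which the second would not pass a limit of 0.01. The median fold of all genes called higher was 1.29 and 1.26 for I4 and 1.25 and 1.31 for H6 (experiment N, then B), so that in H6 in experiment B SERPINB5 lay below the median, at rank 457 of 578.

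**Figure D3:**
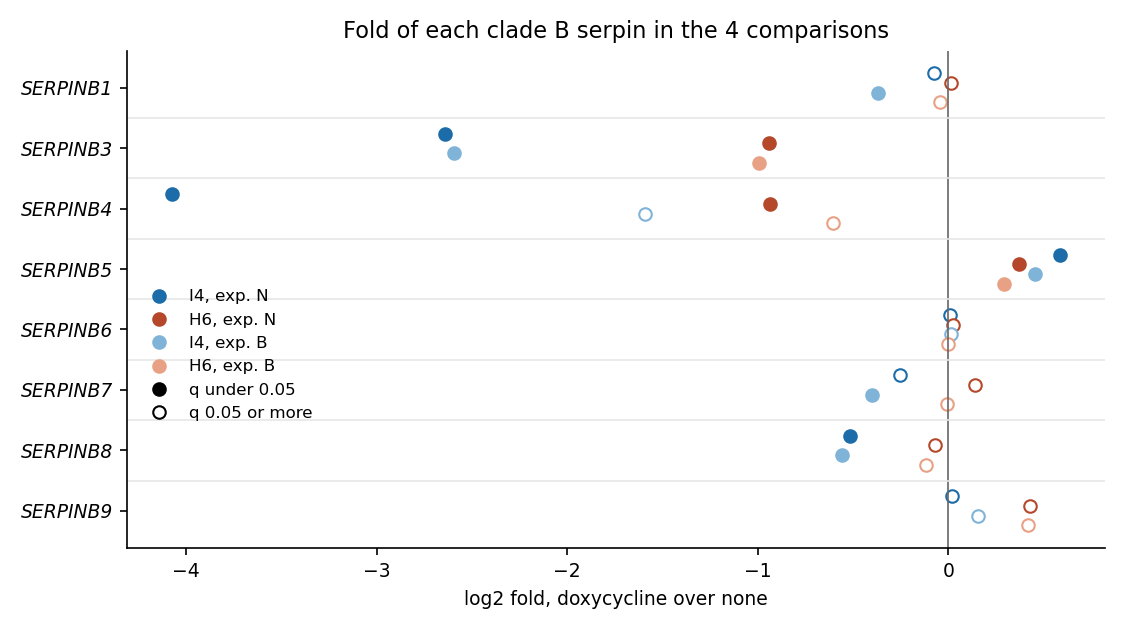
Log2 fold of doxycycline over none for each clade B serpin in the 4 comparisons, from the authors' deposited table; filled points mark q under 0.05. SERPINB3 and SERPINB4 lie left of 0 in all 4 comparisons, the I4 points of SERPINB3 near -2.6, and SERPINB5 lies between 0.29 and 0.59.

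SERPINB8 is a serpin that can inhibit the proprotein convertase furin and is needed for cell adhesion in human skin. Its level in I4 with doxycycline and without it was 7.64 and 10.9 RPKM in experiment N, and 9.22 and 13.6 RPKM in experiment B, from the authors' deposited table. In H6 the pairs were 9.63 and 10.1 RPKM, and 10.7 and 11.6 RPKM, in the authors' deposited table. SERPINB8 fell 1.43-fold (q = 2.72e-11) and 1.47-fold (q = 1.9e-12) in I4 in the authors' deposited table. In H6 the authors' deposited table gives folds of -1.05 in experiment N (q = 0.755) and -1.08 in experiment B (q = 0.647), which were not called; the difference between the clones was not tested. HMSD overlaps SERPINB8 on the same strand and AC009802.1 on the other; HMSD was not called in any comparison.

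SERPINB1 inhibits neutrophil elastase, cathepsin G and proteinase 3, and SERPINB7, also called megsin, is a serpin whose loss causes a palmoplantar keratoderma in humans. SERPINB1 stood at 10.1 RPKM with doxycycline and 13.1 RPKM without in I4 in experiment B, a fall of 1.29-fold (q = 0.000111) in the authors' deposited table. In the other 3 comparisons its folds lay between -1.06 and 1.01 with q of at least 0.87, so the call rests on 1 experiment. SERPINB7 was the most abundant of the 8 genes. In I4 its level with doxycycline and without it was 22.8 and 27.2 RPKM in experiment N, and 28.99 and 38.3 RPKM in experiment B, with a fold of -1.19 (q = 0.0905) and a fall of 1.32-fold (q = 6.76e-07) in the authors' deposited table. In H6 the levels were 81.0 and 73.4 RPKM in experiment N, and 88.7 and 89.1 RPKM in experiment B, with folds of 1.10 (q = 0.523) and -1.004 (q = 1.00) in the authors' deposited table.

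SERPINB6 inhibits cathepsin G and other trypsin-like and chymotrypsin-like proteases, and SERPINB9 protects cytotoxic lymphocytes and their targets from granzyme B. SERPINB6 was at 12.6 to 15.2 RPKM with doxycycline and 12.4 to 15.2 RPKM without in the 4 comparisons, with absolute folds of at most 1.02 and q of 1.00 in the authors' deposited table. SERPINB9 was at 0.121 to 0.265 RPKM with doxycycline, or about 11.9 to 39.4 reads per library, and at 0.120 to 0.197 RPKM without it, and its folds of 1.01 to 1.35 in the authors' deposited table were not called (q of 0.519 to 1.00). A fold of 1.35 for SERPINB9 in H6 in experiment N rests on about 39.4 reads per library with doxycycline and 29.2 without it, so rises of the size of those of SERPINB5 may not be detectable for it at this depth. Both genes lie with SERPINB1 on the minus strand of chromosome 6 in GRCh38, from 2832332 (SERPINB1) to 2972165 (SERPINB6).

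The clones differed in the level of several of these genes whether or not doxycycline was present, as a description with no test. Without doxycycline SERPINB3 in H6 was 4.73-fold that in I4 in experiment N and 4.44-fold in experiment B, computed from the authors' deposited table. SERPINB7 was 2.70-fold and 2.32-fold higher in H6, and SERPINB4 3.21-fold and 3.22-fold higher. SERPINB5 had ratios of 0.682 and 0.639 of H6 over I4. SERPINB1, SERPINB6 and SERPINB8 had ratios of 0.858 to 1.11, while SERPINB9 had 1.65 and 1.39 at its low level. Without doxycycline the order of levels in I4, from the highest, was SERPINB7, SERPINB6, SERPINB5, SERPINB8, SERPINB1, SERPINB3, SERPINB4 and SERPINB9 in experiment N. In H6 in experiment N it was SERPINB7, SERPINB6, SERPINB1, SERPINB8, SERPINB5, SERPINB3, SERPINB4 and SERPINB9. SERPINB6, SERPINB5, SERPINB8 and SERPINB1 lay within 7.91 to 13.1 RPKM there, and without replicate values it cannot be said which of them differ beyond their spread.

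Along chromosome 18 SERPINB5 was called higher, and the called folds of the clade B genes from SERPINB4 to SERPINB8 were all negative. Of these genes only SERPINB3 and SERPINB2 were called in all 4 comparisons. SERPINB7 had a positive fold in H6 in experiment N (1.10, q = 0.523). SERPINB2, which encodes plasminogen activator inhibitor 2 and is not among the 8, fell in all 4 comparisons, with folds of -1.96 to -2.49 in the authors' deposited table, the largest of its q-values being 6.99e-06. The other 4 clade B genes, SERPINB10, SERPINB11, SERPINB12 and SERPINB13, had mean levels under 0.1 RPKM. Within 500 kb of the members on this chromosome, none of the 5 other genes with a row was called in all 4 comparisons. Of all genes tested in all 4, 3.69% were so called with the same sign. VPS4B and KDSR, which lie nearest to SERPINB5, were not called in any. PHLPP1 was called higher in I4 in experiments N and B (1.20-fold and 1.25-fold), and BCL2 was called lower in H6 in experiment N (fold of -1.67). On chromosome 6, 1 of 10 such genes was called in all 4, against 3.69% of all genes tested in all 4. This was SLC22A23, a member of the solute carrier family 22. It rose 1.32-fold and 1.44-fold for I4 and 1.63-fold and 1.64-fold for H6 in the authors' deposited table. The counts on both chromosomes were not tested against that share.

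**Figure D4:**
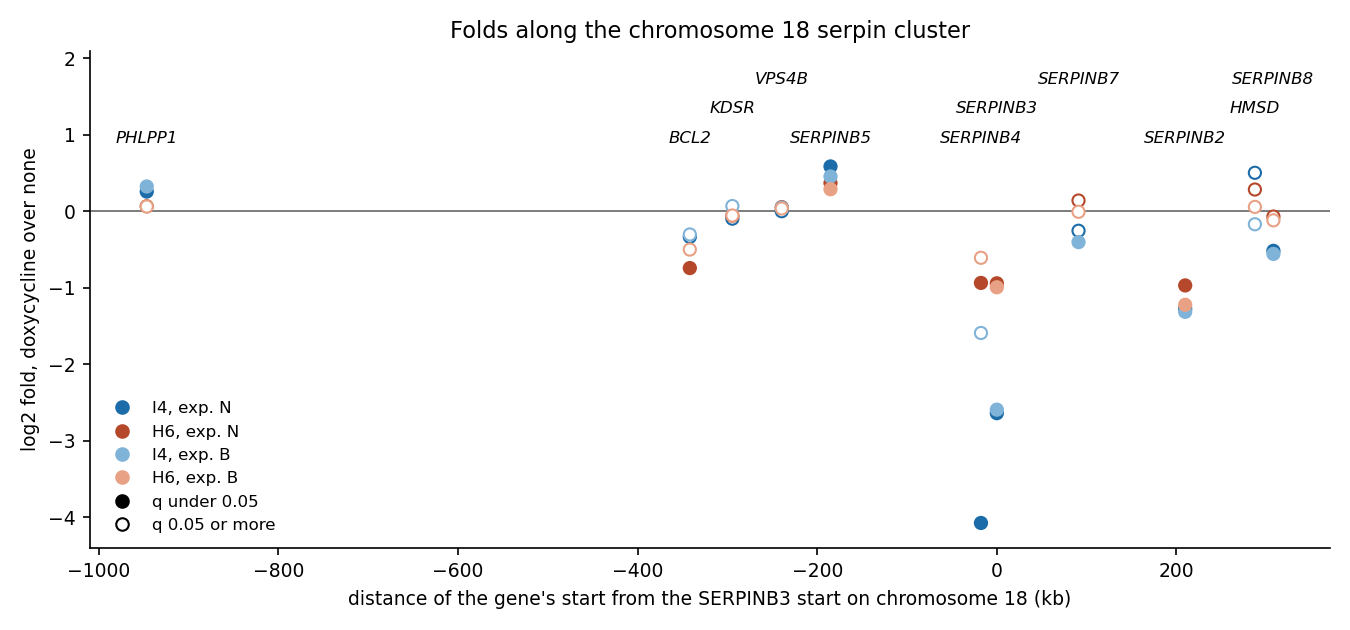
Log2 fold of doxycycline over none (vertical axis) for serpins and other genes of at least 0.1 RPKM on chromosome 18, by the distance of the gene's start from that of SERPINB3 (kb); filled points mark q under 0.05. SERPINB5 lies above 0 and SERPINB4, SERPINB3 and SERPINB2 below 0 in all 4 comparisons, with VPS4B and KDSR near 0.

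The serpins of other clades, the proteases that clade B serpins are known to bind and the cystatins, a separate family of cathepsin inhibitors, were examined as lists. Of 14 serpins of other clades 4 had a mean level of at least 1 RPKM. None was called higher in all 4 comparisons, where 1.73% of all genes tested in all 4 were. Of 19 proteases 6 reached that level, and none was called in all 4, against 3.69% of all genes tested in all 4. For I4 the authors' deposited table calls 3 of the 13 tested proteases lower in experiment N, where 8.53% of all tested genes are called lower, and 2 of 12 in experiment B, against 6.59%, with none called higher. For H6 it calls 1 of 12 higher in experiment N, against 6.57% of all tested genes, and in experiment B 1 of 12 higher and 1 lower, against 3.63% and 3.93%. Cathepsin S, CTSS, a target of SERPINB3 chosen for mention after its values were seen, was called lower in 3 comparisons, by 7.01-fold and 4.84-fold in I4 and 1.81-fold in H6 in experiment B (q = 0.0104), and had a fold of -1.60 in H6 in experiment N (q = 0.0724) in the authors' deposited table. CTSS stood at only 0.0843 to 0.856 RPKM over the 8 groups. In I4 with doxycycline this is about 13.3 and 16.2 reads per library in experiments N and B, so the size of its I4 folds is uncertain. Cathepsin L, CTSL, at 6.55 to 14.7 RPKM over the 8 groups, was not called in any comparison. Of 8 cystatins 3 reached 1 RPKM, and none was called in all 4, against the same 3.69% of all genes.

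Genes with the most similar folds were sought for SERPINB3 and SERPINB5, by the Euclidean distance over the 4 log2 folds among genes of at least 1 RPKM. For SERPINB3 these were LCN2 (distance 0.69), which encodes the iron-carrier-binding protein lipocalin 2, DIO3 (0.70), which encodes a deiodinase that inactivates thyroid hormone, and C15orf48 (0.78). The I4 folds of SERPINB3 rest on about 3.41 and 3.21 reads per library with doxycycline. Its distances and the choice of these genes are therefore uncertain. LCN2 had folds of -4.36 and -6.15 for I4 and -1.43 and -1.75 for H6 in the authors' deposited table, in experiments N and B, and was not called in H6 in experiment N (q = 0.0934). For SERPINB5 they were AIG1 (0.06), BNIP3 (0.09), a mitophagy receptor, and GSTA4 (0.09), a glutathione transferase. AIG1 had folds of 1.49 and 1.39 for I4 and 1.31 and 1.27 for H6 in the authors' deposited table and was called in all 4 comparisons, while GSTA4 was not called in H6 in experiment B (q = 0.300).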

How the data were processed

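Libraries were grouped by clone, experiment and doxycycline as the labels give them; those of experiment N keep both strands and those of experiment B are strand-specific, per the labels' protocols. The build was hg38, per the submitters' processing notes; no aligner, counting tool, annotation, read length or test is stated in these sources. Per the file headers the table holds the authors' maximum mean, fold change and q-value. The RPKM scale was read from the values: multiplied by exon length they gave fixed steps for faint genes, and column sums were 283580 to 301832. The fold is the authors' deposited signed score, never between -1 and 1. The authors' deposited q-value (adjusted p-value, method unstated) can reflect at most the spread between wells of 1 clone.

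Folds were converted to log2 with their sign. The planned count models need values per library and were not run. Depth per library was estimated as the inverse of 3 times (3 wells per mean) the median of level times exon length over genes taken to rest on a single read. These genes were those inside a range of level times exon length that was set by hand for each experiment, which bounds the estimate. Untreated H6 cells of experiment B had 2 wells, whose single reads give larger steps, so the H6 estimate there describes the doxycycline libraries. A mean level is the mean of the 4 higher group means. Names were matched to GENCODE v29 (21376 of 21463 rows), and promoters of all 8 genes to RefSeq. All 8 genes are named, and from other lists those called in all 4 comparisons with 1 sign, with the 3 closest genes for members called with 1 sign in at least 3. SERPINB10 to SERPINB13, CTSS, CTSL, CMA1, CASP4, VPS4B, KDSR, PHLPP1, BCL2, HMSD, KRT10, EPCAM and CDH1 were named after their values were seen. Some results of the other lists are not reported here. Genes and lists were chosen with earlier results of these data known. Python 3.11.15, pandas 2.3.3 and Biopython 1.88 were used, and scripts were tested on simulated data. Alternatives were stricter q, fold and level limits, single clones or experiments, a pseudocount and centring.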

Additional observations from a re-analysis of the deposited data

How the results depend on the processing

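With a q-value under 0.01, the calls numbered 4 for I4 and 2 for H6 in experiment N (10.6% and 8.92% of all tested genes), 5 for I4 and 1 for H6 in experiment B (9.69% and 4.83%), and 1 in all 4 comparisons (2.58%), SERPINB5 being lost in H6 in experiment B. A minimum absolute log2 fold of 1 left 2 in experiment N (1.33%) and 1 in experiment B (1.18%) for I4, 0 and 0 for H6 (0.866% and 0.622%), and 0 in all 4 (0.246%), since SERPINB3 in H6 lies just short of it (-0.94 and -0.99). Requiring 1 RPKM in the comparison left 2 genes for I4 in experiment N (22.9%), without SERPINB3 and SERPINB4, and 4 in experiment B (19.4%), without SERPINB3; for H6 it left 2 and 2 (20.4% and 10.5%). A mean level of 1 RPKM left 2 called in all 4 (4.92%), but 1 RPKM in each comparison, a limit chosen after seeing the data, left 1, SERPINB5 (4.99%). Calls of 1 sign within experiment N, experiment B, clone I4 or clone H6 alone numbered 3, 2, 3 and 2, where 8.16%, 4.93%, 8.70% and 5.70% of all genes tested were so called. A pseudocount of 1 RPKM moved 5 of 32 folds by more than 1.5 times, all of SERPINB3 or SERPINB4 (SERPINB3 in I4 to -0.33 and -0.47), and turned the sign of none of the 14 called folds. Centring on the median of all genes moved folds by at most 0.0084 and turned no called sign.

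No paired analysis was possible because the deposited table holds no values per library; leaving out single replicates was not run for the same reason. Depth limits SERPINB4 and SERPINB9, and SERPINB3 in I4, to read numbers per library from about 0.893 to 46.7.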

Other observations

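The gene of mast cell chymase, CMA1, a protease that SERPINB4 inhibits, had a higher group mean of 2.77 RPKM in experiment N and 3.97 RPKM in experiment B in H6, and is listed at 0 in both I4 comparisons of the authors' deposited table. In H6 it was not called (folds of -1.001 and -1.10, q of 1.00 and 1.00 in the authors' deposited table). The 6 leukocyte markers examined summed to at most 0.347 RPKM, but none of them is particular to mast cells. The source of the CMA1 transcript in H6 was not tested.

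CASP4, which encodes an inflammatory caspase, was called lower in I4 in both experiments, by 1.302-fold (q = 3.62e-05) and 1.41-fold (q = 2.79e-08), and had folds of -1.02 and -1.03 in H6 with q of 1.00 in both experiments, in the authors' deposited table.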
